A study of Mus musculus with 8 samples.

Results

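The genes described here act in the G2 phase of the cell cycle and in mitosis. They were given as a list of 39 gene symbols, from cyclins through spindle motors to the contractile ring, and were found by matching the symbols to the array's probe annotation. Of the 39, 38 had at least 1 probe, and Ccnb1 was not matched. The 38 were among 18322 genes with a symbol on the array, which with unnamed probes made 25310 tests, and each was represented by its brightest probe out of 72 probes in all.

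Cells that go from G2 into mitosis switch on a shared set of transcripts. In resting cells and early in the cycle the DREAM complex keeps these genes repressed, and later the MuvB core together with B-MYB and FOXM1 activates them, often through a promoter element called the cell cycle genes homology region (CHR) and nearby CCAAT boxes. In the embryonic cortex the dividing cells are apical progenitors of the ventricular zone and intermediate progenitors of the subventricular zone, whereas newborn neurons leave the cycle and migrate outwards, so these transcripts mark cycling progenitors.

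The study lowered Foxo6, a forkhead transcription factor expressed in the developing brain, by in utero electroporation of C57/BL6 mouse embryos at stage E14.5. One lateral ventricle of each embryo was injected with siRNA at 1 ug per ul and a GFP vector. Embryos were harvested at stage E16.5, their cortical cells were separated by flow sorting, and sorted-cell RNA was hybridised to 8 two-colour arrays. The groups were siFoxO6-3 (4 pools of cortices), siFoxO6-2 (4 pools of cortices), and a non-targeting siRNA called scrambled (1 pool). The scrambled pool was the common reference on all 8 arrays, so the spread among scrambled pools was not measured. Within each siRNA, the siRNA pool was in Cy5 on replicates 2 and 4 and in Cy3 on replicates 1 and 3. All groups carried the GFP vector. The cells are a pooled mixture, and the labels do not give the gate or the share of cells that took up the siRNA.

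The siRNAs are shown because the results below turn on the difference between them. Each is 21 letters long, with n for an unspecified base, and both target Foxo6 on chromosome 4. The strand printed is the one the labels give.
siFoxO6-3: nnccaucagccuuaugacgcu
siFoxO6-2: nnacaugccagugacgacuac

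Values are log2 ratios of the siRNA pool over the scrambled pool after loess normalization, so a negative ratio means less transcript than in scrambled cells on that scale. Signs against scrambled are those after loess unless stated, because they can change with the normalization, as described further on. Foxo6 had log2 ratios of -1.36, -2.31, -1.21 and -1.74 on siFoxO6-3 arrays 1 to 4, against -0.88, -1.21, -0.40 and -1.30 on siFoxO6-2 arrays 1 to 4. It was lower than scrambled on all 8 arrays and fell with both siRNAs together (log2 ratio -1.30, limma adjusted p = 0.00134). Its difference of -0.71 between siFoxO6-3 and siFoxO6-2 did not pass the test (adjusted p = 0.312). The median signal of the siRNA channel ran from 58.0 to 123 intensity units over the arrays. It was lowest on siFoxO6-3 replicate 4 (58.0) and next lowest on siFoxO6-2 replicate 3 (74.0). Across all genes, the lowest median correlations with the other arrays were 0.14 and 0.28 for siFoxO6-3 replicates 4 and 3 and 0.26 for siFoxO6-2 replicate 3. Markers of all 8 cell types examined, from apical progenitors and neurons to microglia and red cells, were above the empty control spots in the siRNA channel on all 8 arrays. Between 72.9% and 87.2% of all gene probes passed that level, depending on the array, so passing it does not show that a cell type was present.

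As a group, the mitotic genes had higher log2 ratios with siFoxO6-3 than with siFoxO6-2, although no single member passed the test of that difference. The difference between the siRNAs, in which the shared scrambled pool cancels, had a median of 0.58 over the 38 genes, against 0.0044 over all 25310. It was above 0 for 34 of the 38, compared with 51.9% of all genes and unnamed probes, and above 0.5 for 23 of the 38, compared with 1.06%. The members were chosen with earlier results of these data known. On all 4 siFoxO6-3 arrays together, 12 members lay above all 4 siFoxO6-2 arrays (background 2.09%), and no member lay below (background 1.69%). These 12 were Cks2, Cdc25b, Cdca3, Plk1, Nek2, Bub1b, Birc5, Cdca8, Tpx2, Prc1, Ect2 and Cdc20. RNA was measured in bulk, so a different share of mitotic cells and a different amount of mitotic RNA per cell cannot be told apart.

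After adjustment over all 25310, limma called 0 members and 1 other gene, Sufu, a background of 0.00395%. The smallest adjusted p of a member was 0.201, for Cdca8. At an unadjusted p under 0.05 there were 26 members, all higher with siFoxO6-3, where 7.26% of all genes reached that level in either direction. The members' probes were brighter than most, so a bright background was also taken. Among 6241 genes and probes with a mean log2 intensity of at least 8, a difference above 0.5 was found for 3.44%, and for 19 of the 25 members that bright. In the same bright group, 53.3% had a difference above 0, as did 24 of the 25 members, and 2.95% had all siFoxO6-3 arrays above all siFoxO6-2 arrays, as did 10 of the 25 members.

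**Figure D1:**
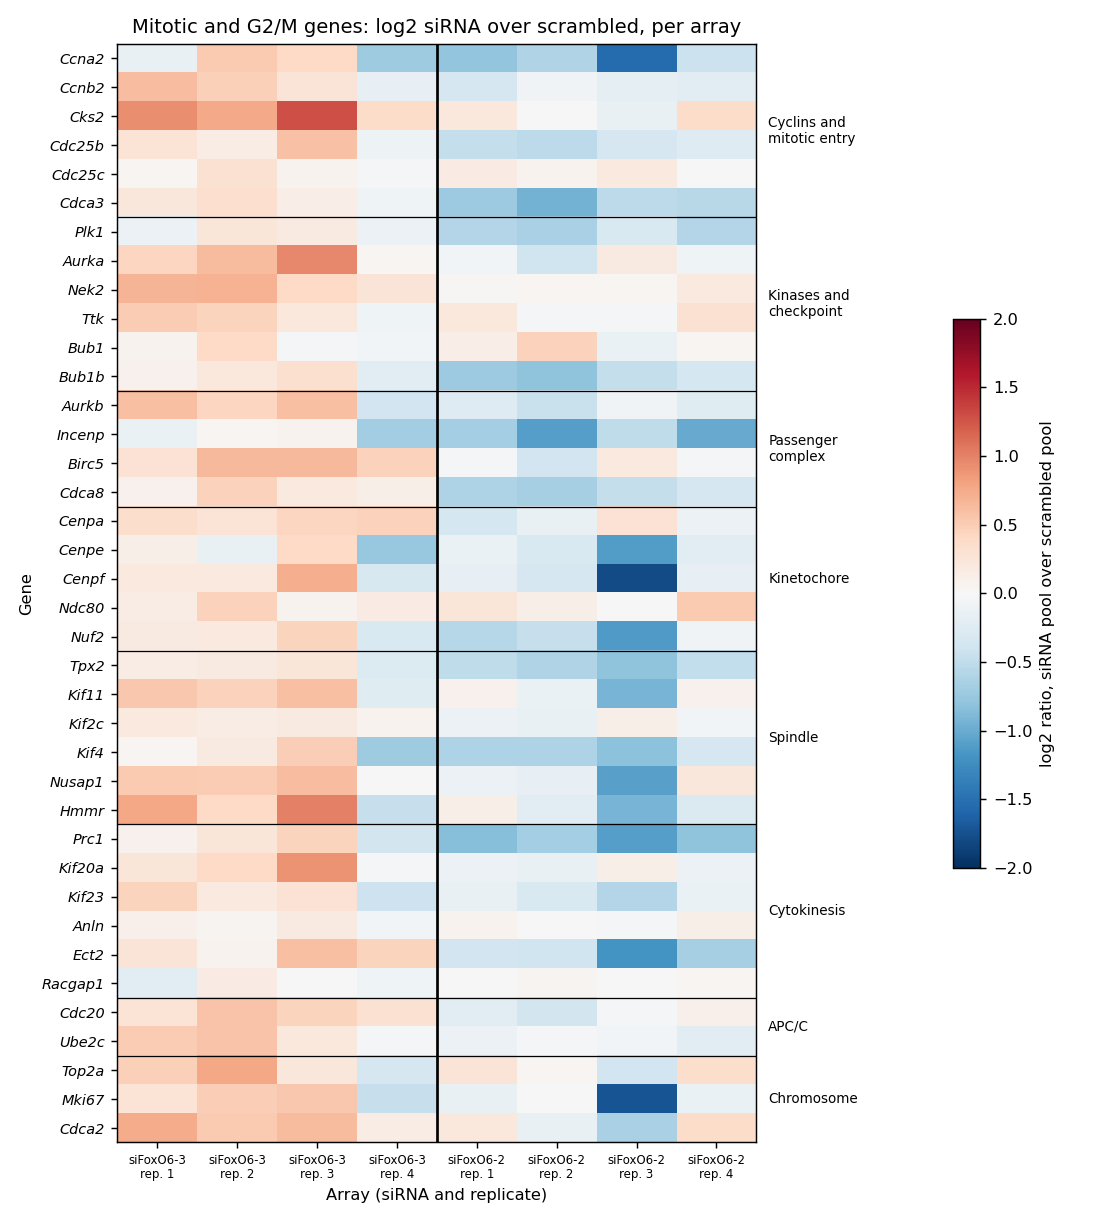
Log2 ratio of the siRNA pool over the scrambled pool for each of the 38 measured genes (rows, grouped by role) on each array (columns, siFoxO6-3 left of the black line and siFoxO6-2 right), with red above 0 and blue below 0. Whether a cell is red or blue depends on the normalization, while the median difference between the left and the right block was 0.58 under loess and median centring alike. With median centring the array medians of the siRNAs overlapped.

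The array medians of the 38 genes were 0.25, 0.40, 0.40 and -0.084 on siFoxO6-3 arrays 1 to 4, against -0.13, -0.27, -0.36 and -0.12 on siFoxO6-2 arrays 1 to 4. All 4 siFoxO6-3 medians lay above all 4 siFoxO6-2 medians, and siFoxO6-3 replicate 4 was the nearest to the siFoxO6-2 arrays. Without siFoxO6-3 replicate 4 the median difference was 0.71, and without siFoxO6-2 replicate 3, where several members were lowest, it was 0.47. With both of these arrays left out, a choice made after seeing the data, 30 of the 38 members had groups that did not overlap, all with siFoxO6-3 above, against 8.07% of all genes. The arrays left out had the lowest median siRNA signals, 58.0 and 74.0 intensity units, and the part of signal in the overlaps was not tested. Split by dye, the median difference was 0.31 on the arrays with the siRNA pool in Cy5, where 33 of 38 were above 0. It was 0.71 on those with the siRNA pool in Cy3, where 35 of 38 were. The Cy5 arrays include siFoxO6-3 replicate 4 and the Cy3 arrays siFoxO6-2 replicate 3, so the dye and these arrays cannot be told apart.

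Genes of mitotic entry were the first role group. Cdca3 had log2 ratios of 0.23, 0.33, 0.13 and -0.086 on siFoxO6-3 arrays 1 to 4, against -0.72, -0.94, -0.52 and -0.55 on siFoxO6-2 arrays 1 to 4. Cdca3 is an F-box protein that targets the mitosis-inhibiting kinase WEE1 for destruction, and its groups did not overlap. Its log2 ratio averaged 0.15 ± 0.18 with siFoxO6-3 and -0.68 ± 0.19 with siFoxO6-2 (SD, n = 4 each), a difference of 0.83 (95% interval 0.55 to 1.12, limma adjusted p = 0.216). A dimmer Cdca3 probe that still passed the empty spots on every array gave 0.15. Cks2 had log2 ratios of 0.94, 0.77, 1.29 and 0.37 on siFoxO6-3 arrays 1 to 4, against 0.22, 0.0025, -0.15 and 0.36 on siFoxO6-2 arrays 1 to 4. Cks2 binds cyclin-dependent kinases and helps them recognise substrates. Every siFoxO6-3 array was above every siFoxO6-2 array, the nearest pair being siFoxO6-3 replicate 4 and siFoxO6-2 replicate 4. The difference was 0.73 (95% interval 0.28 to 1.18), and a second bright Cks2 probe gave 0.63.

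Cdc25b had log2 ratios of 0.28, 0.16, 0.58 and -0.098 on siFoxO6-3 arrays 1 to 4, against -0.47, -0.53, -0.33 and -0.26 on siFoxO6-2 arrays 1 to 4. Cdc25b, a phosphatase that removes inhibitory phosphates from CDK1, was below scrambled on all 4 siFoxO6-2 arrays, and its groups did not overlap. The difference was 0.63 (95% interval 0.33 to 0.93), and its second probe gave 0.75. Ccna2 had log2 ratios of -0.16, 0.52, 0.39 and -0.72 on siFoxO6-3 arrays 1 to 4, against -0.79, -0.60, -1.55 and -0.42 on siFoxO6-2 arrays 1 to 4. For Ccna2, which encodes cyclin A2, the groups overlapped through siFoxO6-3 replicate 4, and siFoxO6-2 replicate 3 was the lowest array. Its difference of 0.85 had a wide interval of 0.071 to 1.63. Ccnb2, a cyclin of the CDK1 kinase, had a difference of 0.50. Cdc25c had log2 ratios of 0.032, 0.30, 0.063 and -0.024 on siFoxO6-3 arrays 1 to 4, against 0.16, 0.071, 0.19 and -0.014 on siFoxO6-2 arrays 1 to 4. Cdc25c, another CDK1-activating phosphatase, had a dim probe and a difference of -0.0090 (95% interval -0.22 to 0.20).

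Among the kinases and checkpoint proteins, 4 of 6 had an unadjusted 95% interval above 0. Of all genes, 4% were higher at an unadjusted limma p under 0.05, which is the same criterion. Plk1 had log2 ratios of -0.12, 0.24, 0.18 and -0.12 on siFoxO6-3 arrays 1 to 4, against -0.59, -0.65, -0.31 and -0.59 on siFoxO6-2 arrays 1 to 4. Plk1, a kinase of centrosome maturation and mitotic entry, had groups that did not overlap and a difference of 0.58 (95% interval 0.31 to 0.86). Bub1b had log2 ratios of 0.084, 0.21, 0.32 and -0.21 on siFoxO6-3 arrays 1 to 4, against -0.72, -0.80, -0.48 and -0.35 on siFoxO6-2 arrays 1 to 4. Bub1b, which encodes the spindle checkpoint protein BUBR1, was likewise separated, with a difference of 0.69 (95% interval 0.36 to 1.03). Nek2 had log2 ratios of 0.68, 0.70, 0.40 and 0.26 on siFoxO6-3 arrays 1 to 4, against 0.021, 0.034, 0.035 and 0.20 on siFoxO6-2 arrays 1 to 4. Nek2, a kinase that splits centrosomes before the spindle forms, was above scrambled on all 8 arrays and higher on every siFoxO6-3 array, with a difference of 0.44. Aurka, a kinase of the spindle poles, had a difference of 0.61, and Ttk, the checkpoint kinase MPS1, had a dim probe and a difference of 0.16.

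Probes of Bub1, a checkpoint kinase of the kinetochore, disagreed. Bub1 had, by its brightest probe, log2 ratios of 0.063, 0.40, -0.039 and -0.055 on siFoxO6-3 arrays 1 to 4, against 0.14, 0.46, -0.13 and 0.034 on siFoxO6-2 arrays 1 to 4. The groups overlapped and the difference was -0.031 (95% interval -0.35 to 0.29). The other probe, also above the empty spots on all arrays, had log2 ratios of 0.38, 0.13, 0.94 and 0.012 on siFoxO6-3 arrays 1 to 4, against -0.15, -0.43, -1.18 and -0.26 on siFoxO6-2 arrays 1 to 4. By that probe the groups did not overlap and the difference was 0.87. Which transcripts each probe detects was not tested.

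The chromosomal passenger complex corrects wrong attachments of chromosomes to the spindle and later steers cytokinesis. All 4 of its members had unadjusted intervals of the difference above 0, against the same 4% of all genes. Cdca8 had log2 ratios of 0.090, 0.46, 0.19 and 0.12 on siFoxO6-3 arrays 1 to 4, against -0.61, -0.66, -0.48 and -0.34 on siFoxO6-2 arrays 1 to 4. Cdca8, which encodes the complex's borealin subunit, was above scrambled on all siFoxO6-3 arrays and below it on all siFoxO6-2 arrays, a pattern shared by 2 members, Cdca8 and Ect2, and by 0.324% of all genes. Cdca8 averaged 0.22 ± 0.17 with siFoxO6-3 and -0.52 ± 0.15 with siFoxO6-2 (SD, n = 4 each), and the difference of 0.74 (95% interval 0.50 to 0.98) was 1.67-fold on the linear scale. Dimmer Cdca8 probes gave 0.11 and 0.056. Incenp had log2 ratios of -0.13, 0.038, 0.074 and -0.69 on siFoxO6-3 arrays 1 to 4, against -0.68, -1.11, -0.51 and -1.01 on siFoxO6-2 arrays 1 to 4. Incenp, the scaffold of the complex, overlapped through siFoxO6-3 replicate 4 and differed by 0.65 (95% interval 0.29 to 1.01). Aurkb had log2 ratios of 0.61, 0.43, 0.60 and -0.38 on siFoxO6-3 arrays 1 to 4, against -0.26, -0.45, -0.070 and -0.25 on siFoxO6-2 arrays 1 to 4. Aurkb, the complex's kinase, overlapped through the same array and differed by 0.57. Birc5, which encodes survivin, had groups that did not overlap and a difference of 0.58.

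Of the 5 kinetochore genes, 4 had a difference above 0, compared with 51.9% of all genes, and the groups overlapped in all 5. Cenpf had log2 ratios of 0.19, 0.19, 0.73 and -0.32 on siFoxO6-3 arrays 1 to 4, against -0.16, -0.33, -1.78 and -0.16 on siFoxO6-2 arrays 1 to 4. Cenpf, a large kinetochore and nuclear matrix protein, was lowest on siFoxO6-2 replicate 3 and its groups overlapped through siFoxO6-3 replicate 4. The difference of 0.81 (95% interval -0.15 to 1.76) was 0.36 without siFoxO6-2 replicate 3. Ndc80 had log2 ratios of 0.15, 0.45, 0.063 and 0.17 on siFoxO6-3 arrays 1 to 4, against 0.24, 0.11, -0.012 and 0.52 on siFoxO6-2 arrays 1 to 4. Ndc80, the microtubule-binding core of the kinetochore, had a dim probe, overlapping groups and a difference of -0.0050. Its partner Nuf2 differed by 0.69, the centromeric histone gene Cenpa by 0.46 and the kinetochore motor gene Cenpe by 0.35.

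All 6 spindle genes had a difference above 0, compared with 51.9% of all genes. Tpx2 had log2 ratios of 0.15, 0.18, 0.25 and -0.27 on siFoxO6-3 arrays 1 to 4, against -0.51, -0.60, -0.81 and -0.49 on siFoxO6-2 arrays 1 to 4. Tpx2, which activates Aurora A and nucleates spindle microtubules, had groups that did not overlap and a difference of 0.68 (95% interval 0.37 to 0.99). Hmmr had log2 ratios of 0.78, 0.40, 1.01 and -0.46 on siFoxO6-3 arrays 1 to 4, against 0.11, -0.23, -0.92 and -0.29 on siFoxO6-2 arrays 1 to 4. Hmmr, a spindle pole and hyaluronan-binding protein, spanned more than 1 log2 unit within each group, and the groups overlapped. Its difference was 0.77 (95% interval 0.0087 to 1.52). Kif2c had log2 ratios of 0.19, 0.14, 0.18 and 0.073 on siFoxO6-3 arrays 1 to 4, against -0.11, -0.15, 0.12 and -0.050 on siFoxO6-2 arrays 1 to 4. Kif2c, a kinesin that takes microtubules apart at kinetochores, was dim, and 1 siFoxO6-2 array lay among the siFoxO6-3 values. The difference was 0.19. The motors Kif11, which pushes spindle poles apart, and Kif4, a chromokinesin, differed by 0.57 and 0.60, and the microtubule bundler Nusap1 by 0.70.

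Cytokinesis held the largest and the smallest differences of the 38 genes. Ect2 had log2 ratios of 0.26, 0.075, 0.61 and 0.44 on siFoxO6-3 arrays 1 to 4, against -0.38, -0.39, -1.20 and -0.66 on siFoxO6-2 arrays 1 to 4. Ect2 switches on RhoA to build the contractile ring, and its groups did not overlap. Ect2 averaged 0.35 ± 0.23 with siFoxO6-3 and -0.66 ± 0.38 with siFoxO6-2 (SD, n = 4 each), a difference of 1.00 (95% interval 0.52 to 1.48, limma adjusted p = 0.3), or 2.01-fold. A dimmer Ect2 probe gave -0.13. Prc1 had log2 ratios of 0.081, 0.24, 0.45 and -0.37 on siFoxO6-3 arrays 1 to 4, against -0.85, -0.67, -1.10 and -0.81 on siFoxO6-2 arrays 1 to 4. Prc1, which bundles the microtubules of the central spindle, had groups that did not overlap and a difference of 0.96 (95% interval 0.54 to 1.38).

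Racgap1 had log2 ratios of -0.21, 0.17, 0.0034 and -0.079 on siFoxO6-3 arrays 1 to 4, against -0.0027, 0.055, 0.013 and 0.037 on siFoxO6-2 arrays 1 to 4. Racgap1, which with Kif23 forms the centralspindlin complex, gave a probe near the empty spots and a difference of -0.054 (95% interval -0.23 to 0.13), the lowest of the 38. Kif23 itself differed by 0.42. The kinesin Kif20a, which carries passenger proteins to the midzone, differed by 0.44, and the ring scaffold Anln, also near the empty spots, by 0.032.

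The remaining members serve the anaphase-promoting complex (APC/C) and the chromosomes. Cdc20 had log2 ratios of 0.27, 0.57, 0.44 and 0.31 on siFoxO6-3 arrays 1 to 4, against -0.23, -0.36, -0.023 and 0.11 on siFoxO6-2 arrays 1 to 4. Cdc20, the activator of APC/C at anaphase, had groups that did not overlap and a difference of 0.53 (95% interval 0.24 to 0.81). Ube2c had log2 ratios of 0.51, 0.57, 0.21 and -0.019 on siFoxO6-3 arrays 1 to 4, against -0.12, -0.018, -0.055 and -0.20 on siFoxO6-2 arrays 1 to 4. Ube2c, the ubiquitin-conjugating enzyme of APC/C, overlapped through siFoxO6-3 replicate 4 and siFoxO6-2 replicate 2, and differed by 0.42.

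Mki67 had log2 ratios of 0.27, 0.49, 0.53 and -0.46 on siFoxO6-3 arrays 1 to 4, against -0.14, -0.0079, -1.72 and -0.13 on siFoxO6-2 arrays 1 to 4. Mki67, the proliferation marker that coats mitotic chromosomes, was low on siFoxO6-2 replicate 3 and siFoxO6-3 replicate 4, and its groups overlapped. Its difference of 0.71 (95% interval -0.27 to 1.68) was 0.27 without siFoxO6-2 replicate 3. A dimmer Mki67 probe that also passed the empty spots gave 0.078. Top2a had log2 ratios of 0.47, 0.77, 0.22 and -0.33 on siFoxO6-3 arrays 1 to 4, against 0.25, 0.042, -0.39 and 0.35 on siFoxO6-2 arrays 1 to 4. Top2a, the topoisomerase that untangles sister chromatids, had a dim probe, overlapping groups and a difference of 0.22 (95% interval -0.39 to 0.83). Cdca2, a phosphatase subunit that loads onto anaphase chromatin, differed by 0.56, while its dimmer probes above the empty spots gave 0.0084 and 0.35.

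**Figure D2:**
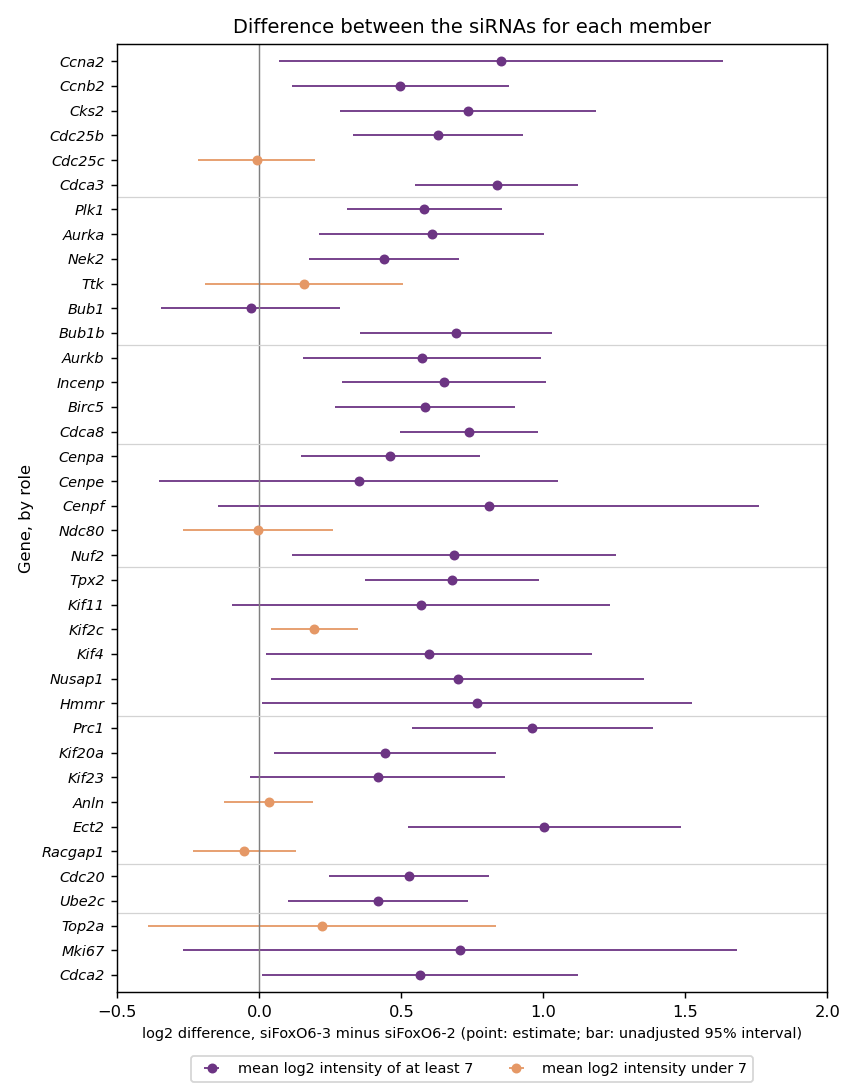
Difference in log2 ratio, siFoxO6-3 minus siFoxO6-2, for the 38 genes in order of role, with the unadjusted 95% interval, coloured by probe brightness. The 7 genes with a mean log2 intensity under 7 lie between -0.05 and 0.22, and the brighter genes other than Bub1 lie at 0.35 or above.

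The size of the difference went with the brightness of the probe. The 7 members with a mean log2 intensity under 7, which were Cdc25c, Ttk, Ndc80, Kif2c, Anln, Racgap1 and Top2a, had differences of -0.05 to 0.22. Of the 31 brighter members, the 30 other than Bub1 had differences of 0.35 to 1.00. Brightness is a property of the probe as well as of the transcript, so it gives no order of transcript levels between genes. Of 34 further probes for 23 of the members, 15 were above the empty spots in both channels on all 8 arrays, and 13 of these 15 had the same sign of difference as the gene's brightest probe. For 12 of the 15 the difference was smaller than that of the brightest probe, the exceptions being those of Bub1, Cdc25b and Kif20a. The median difference over all 72 probes was 0.32, and 57 of them were above 0. Of the 38 brightest probes, 35 were above the empty spots in both channels on all 8 arrays, the exceptions being Cdc25c, Anln and Racgap1.

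Against scrambled cells, the position of the groups depended on the normalization. With loess, the members' median log2 ratio was 0.21 for siFoxO6-3 and -0.24 for siFoxO6-2. With each array only centred on its median, these were 0.75 and 0.17, while the median of all genes moved to 0.11 and 0.093. The median difference between the siRNAs was 0.58 with median centring, against 0.58 with loess, but with centring the array medians of the siRNAs overlapped. The comparisons with scrambled share the 1 scrambled pool, and their p-values leave out its spread.

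**Figure D3:**
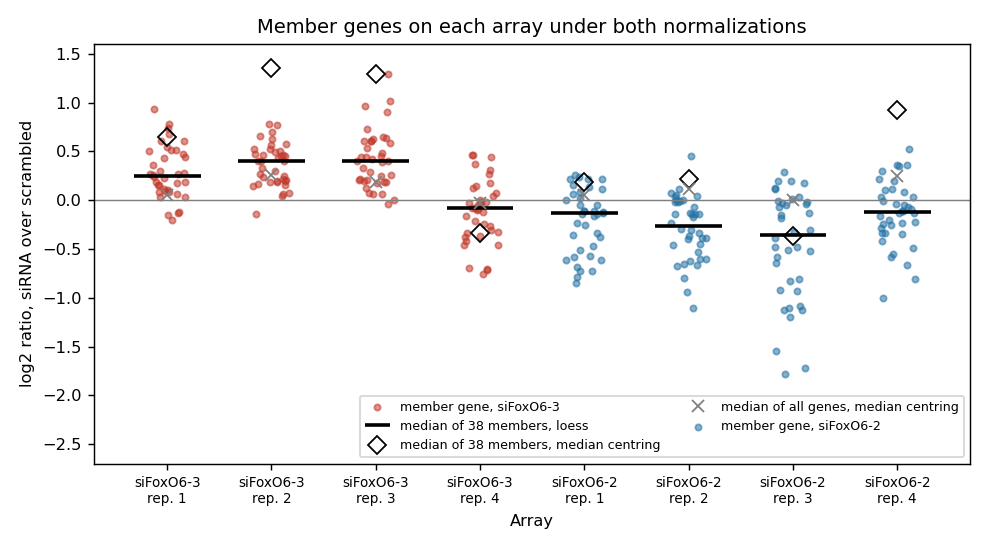
Log2 ratios of the 38 genes on each array (points, jittered sideways), with their median after loess (black bar) and after median centring (diamond), and the median of all genes after centring (cross). With loess, 3 of 4 siFoxO6-3 medians and 0 of 4 siFoxO6-2 medians are above 0, whereas with centring the diamonds spread from -0.37 to 1.35 and the siRNAs overlap.

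In siFoxO6-3 cells, 2 members passed the test, both higher with loess. The background was 0.423% of all genes called higher and 0.478% called lower, or 0.901% in either direction. Cks2 rose (log2 ratio 0.84, limma adjusted p = 0.0482) and so did Nek2 (log2 ratio 0.51, adjusted p = 0.0443). Both stayed positive with median centring, where no member passed. With loess, 34 of the 38 fitted log2 ratios were above 0, compared with 13288 of all 25310. On all 4 arrays, 11 members were above 0, but the share of all genes with this pattern is not given here. The number called was 6 without siFoxO6-2 replicate 3 and 0 without any single one of the other 7 arrays.

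In siFoxO6-2 cells, 9 members passed the test and all were lower with loess, against 4.48% of all genes called lower, 4.3% called higher and 8.79% in either direction. These were Cdc25b, Cdca3, Plk1, Bub1b, Incenp, Cdca8, Tpx2, Prc1 and Ect2. Prc1 fell by 0.86 on the log2 scale (limma adjusted p = 0.0115), Incenp by 0.83 (adjusted p = 0.00841) and Cdca3 by 0.68 (adjusted p = 0.00774). With median centring no member passed, and Cdc25b, Cdca3, Plk1 and Cdca8 came out slightly above 0. The median of all genes was then 0.093, and Cdc25b, Cdca3 and Plk1 lay below it. In all, 19 members were below 0 on all 4 siFoxO6-2 arrays with loess. These arrays share the scrambled pool, and the share of all genes with this pattern is not given here. Leaving out siFoxO6-2 replicate 1 left 0 called, and leaving out replicates 2 or 4 left 5 or 3.

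Both siRNAs together gave 8 called members, 3 higher and 5 lower. The background was 13.3% of all genes in either direction, 6.72% higher and 6.59% lower. With loess, Cks2 (log2 ratio 0.47), Nek2 (0.29) and Ndc80 (0.21) were higher than scrambled, and Incenp (-0.50), Prc1 (-0.38), Cdca3 (-0.27), Tpx2 (-0.26) and Plk1 (-0.24) were lower. These last 5 turned positive with median centring, where the median of all genes was 0.11. Incenp was the member whose call survived leaving out any single array, with limma adjusted p-values of up to 0.0341. Leaving out replicates 1, 2 or 3 of siFoxO6-3 left 1, 3 or 4 members called, and leaving out replicates 1, 2 or 4 of siFoxO6-2 left 1, 4 or 2.

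Other genes of the same processes had a smaller median difference, but these lists were not matched to the members for probe brightness. Members and lists were both chosen with earlier results of these data known. In 6 further lists, 113 genes of mitotic entry, spindle and cytokinesis, kinetochore, condensin and cohesion, APC/C and G2/M transcription had a median difference of 0.18. Of them, 91 were above 0, compared with 51.9% of all genes. None passed the test of the difference. With loess, 2 of the 113 were called higher in siFoxO6-3 cells and 0 lower, against 0.423% and 0.478% of all genes. In siFoxO6-2 cells, also with loess, 3 were called higher and 13 lower, against 4.3% and 4.48%. All 27 further kinetochore genes had a difference above 0, with a median of 0.18.

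Among these, Cdca5, the cohesin protector sororin, had log2 ratios of -0.17, 0.12, 0.071 and -0.14 on siFoxO6-3 arrays 1 to 4, against -0.78, -0.84, -0.51 and -0.69 on siFoxO6-2 arrays 1 to 4. Its groups did not overlap and the difference was 0.68. Ncapg, a condensin subunit, differed by 0.81, Cks1b, the paralog of Cks2, by 0.70, and the kinetochore gene Cenpp by 0.57. The list of 15 APC/C genes, which holds subunits and also Fzr1, Fbxo5 and Ube2s, had a median difference of 0.11. Genes for regulators of G2/M transcription had a median of -0.0095, and Foxm1, the activator named above, had log2 ratios of -0.071, -0.030, -0.065 and -0.13 on siFoxO6-3 arrays 1 to 4, against -0.61, 0.030, -0.45 and -0.39 on siFoxO6-2 arrays 1 to 4. Foxm1 fell in siFoxO6-2 cells with loess (log2 ratio -0.35, limma adjusted p = 0.0423), and its difference of 0.28 did not pass.

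S phase genes had differences of the same sign as most mitotic genes. Of 29 genes for DNA replication and its licensing, 29 had a difference above 0, compared with 51.9% of all genes. Their median difference was 0.51. Against scrambled, their medians were -0.021 for siFoxO6-3 and -0.57 for siFoxO6-2 after loess. In siFoxO6-2 cells 15 of the 29 were called lower, against 4.48% of all genes. Tyms, which makes thymidylate for DNA synthesis, had log2 ratios of -0.0065, 0.18, 0.19 and 0.14 on siFoxO6-3 arrays 1 to 4, against -0.65, -0.39, -0.59 and -0.47 on siFoxO6-2 arrays 1 to 4. The difference was 0.65 (limma adjusted p = 0.107).

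Of 13 genes of cell cycle exit, 6 had a difference above 0, compared with 51.9% of all genes, and 7 below. The median was -0.12 and the range -0.79 to 0.47. Cdkn1a, which encodes the CDK inhibitor p21, had log2 ratios of -0.19, -0.17, -0.35 and -0.0075 on siFoxO6-3 arrays 1 to 4, against 0.35, 0.31, 0.71 and 0.56 on siFoxO6-2 arrays 1 to 4. Every siFoxO6-3 array was below every siFoxO6-2 array, and the difference was -0.66 (limma adjusted p = 0.26). Ccng2, a cyclin linked to cell cycle arrest, differed by -0.56 with overlapping groups. Cdkn2d, which encodes the CDK inhibitor p19, had log2 ratios of 0.61, 0.34, 0.43 and 0.33 on siFoxO6-3 arrays 1 to 4, against 0.21, -0.22, 0.22 and 0.035 on siFoxO6-2 arrays 1 to 4. It was higher on every siFoxO6-3 array, with a difference of 0.37 (limma adjusted p = 0.312). Cdkn1a and Cdkn2d were the only ones of the 13 exit genes whose groups did not overlap. Of all genes, 2.09% had siFoxO6-3 above in this way and 1.69% had it below.

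No marker of a cell type was called in the difference between the siRNAs, where only 1 of all 25310 tests was called. In siFoxO6-2 cells with loess, 5 of 10 microglia markers were called higher and 0 lower. Of 10 apical progenitor markers, 3 were called lower and 0 higher. The background was 4.3% of all genes called higher and 4.48% lower. Oligodendrocyte markers had 1 called higher and 1 lower, interneuron markers 1 lower, and endothelial and pericyte markers 1 higher. Neuron, intermediate progenitor and red cell markers had 0 called. The array medians of every marker list overlapped between the siRNAs. Of 10 apical progenitor markers, 8 had a difference above 0, compared with 51.9% of all genes, with a median of 0.27. Their median ran from -0.34 to 0.30 over the siFoxO6-3 arrays and from -0.38 to -0.14 over the siFoxO6-2 arrays. Pax6, a transcription factor of apical progenitors, had the highest difference of the list, 0.51, and was the 1 of 10 whose groups did not overlap, where 2.09% of all genes had siFoxO6-3 above in this way. Over all 25310 genes and unnamed probes, 12177 had a difference below 0. Of 10 neuron markers, 9 had a difference below 0, with a median of -0.18. Their array medians were -0.36 to -0.017 with siFoxO6-3 and -0.25 to 0.22 with siFoxO6-2. Of 8 intermediate progenitor markers, 6 had a difference below 0 (median -0.13). The array medians of this list were -0.11 to -0.0089 with siFoxO6-3 and -0.11 to 0.35 with siFoxO6-2. All siFoxO6-3 arrays lay below all siFoxO6-2 arrays for 2 of these 8 and for 1 of the 10 neuron markers. Of all genes, 1.69% did so. No marker of either list had siFoxO6-3 above in this way. Of 8 interneuron markers, 7 had a difference below 0 (median -0.26), with array medians of -0.52 to 0.28 with siFoxO6-3 and -0.39 to 0.28 with siFoxO6-2. Of 10 microglia markers, 7 had a difference below 0 (median -0.16), with array medians of 0.056 to 0.16 with siFoxO6-3 and 0.14 to 0.43 with siFoxO6-2. Ctss, a protease of microglia, had log2 ratios of 0.65, 0.36, 0.51 and 0.43 on siFoxO6-3 arrays 1 to 4, against 1.80, 1.75, 1.71 and 1.14 on siFoxO6-2 arrays 1 to 4. It had the lowest difference of its list, -1.12. It was 1 of 2 among the 10 microglia markers whose siFoxO6-3 arrays all lay below the siFoxO6-2 arrays, compared with 1.69% of all genes. No marker of these lists was at the level of the empty spots, which 72.9% to 87.2% of all gene probes passed, depending on the array. The markers' part in the difference of the mitotic genes was not tested.

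**Figure D4:**
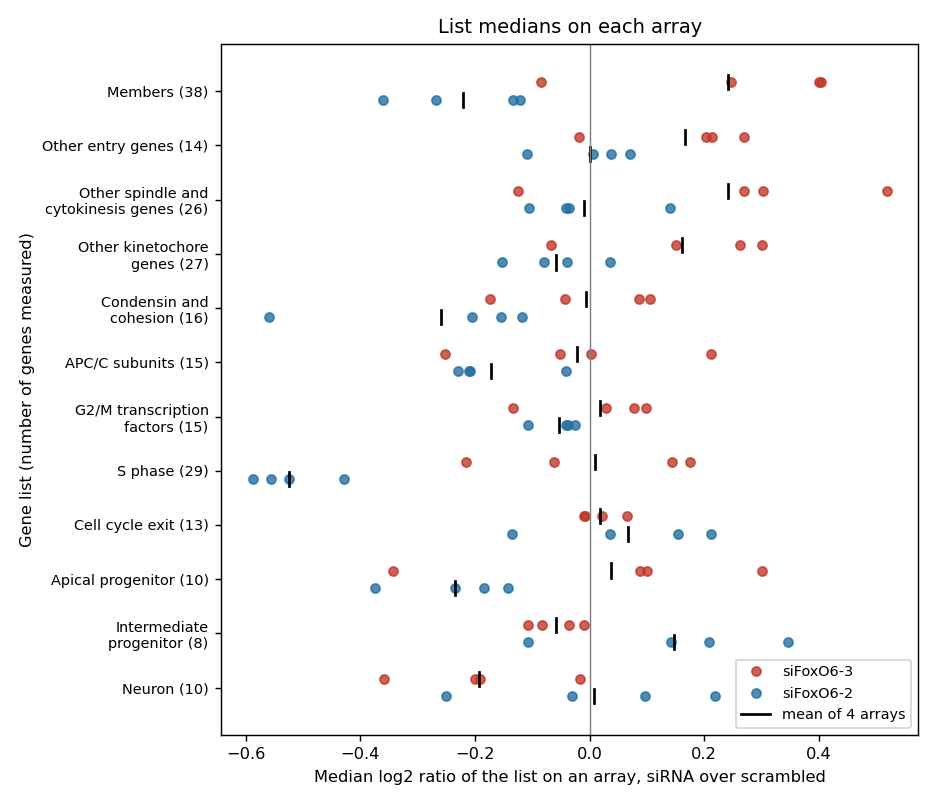
Median log2 ratio of each gene list on each array, after loess (points, 4 arrays per siRNA, siFoxO6-3 in red above siFoxO6-2 in blue), with the mean of the 4 arrays as a black line. The points of the mitotic genes and of the S phase genes do not overlap between the siRNAs, while those of the other lists shown overlap, and positions relative to 0 depend on the normalization.

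Promoter sequence was available for 32 of the 39 members, as 34 windows of 250 bases before to 50 after the start of the gene (RefSeq, build GRCm38.p6). Aurkb, Ccna2, Cdc25c, Cdca2, Incenp, Kif20a and Tpx2 had none. A CHR, taken as TTTGAA or TTCGAA on either strand, was present in 27 of the 34 windows (79.4%), compared with 19.2% of the 32851 windows of all genes. A CCAAT box on either strand was present in 28 (82.4%), compared with 37.4%, and 24 windows (70.6%) held both, compared with 7.53%. The 36 CHR matches had a median distance of 3 bases from the start, and the 67 CCAAT matches lay mostly further upstream, at a median of -65. Ect2 and Prc1 had 2 overlapping windows each, so a match in both windows was counted once per window. These motifs are known features of G2/M genes, and the members were chosen as such genes, so the shares describe the set.

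**Figure D5:**
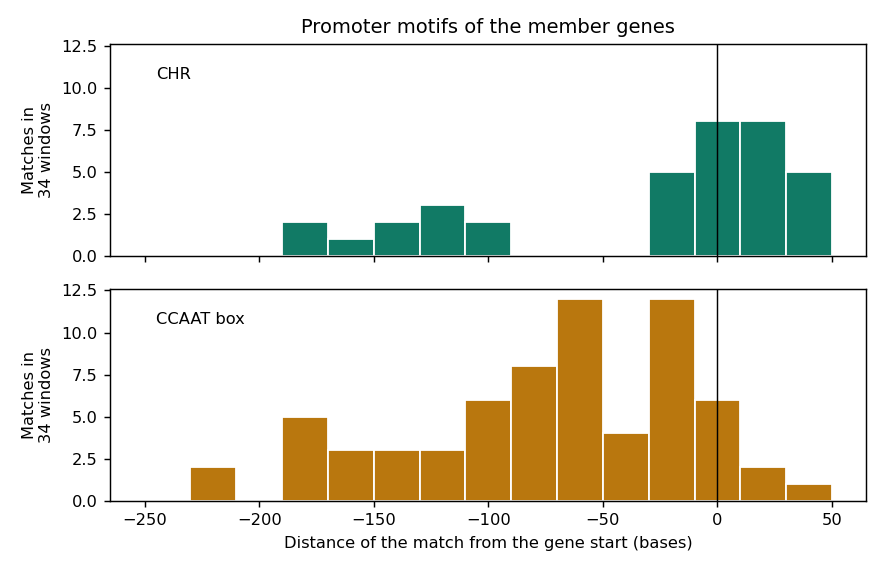
Distance of each CHR match (top) and CCAAT match (bottom) from the gene start in the 34 promoter windows, in bins of 20 bases, with the start at 0 and negative values upstream. CHR matches are most frequent around the start (median 3) and CCAAT matches lie mostly upstream (median -65). Matches shared by the 2 overlapping windows of Ect2 and of Prc1 are counted once per window.

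The windows below belong to genes across the range of differences, and capitals mark CHR and CCAAT matches on either strand. They are written 5′ to 3′ along the gene's strand. Ect2 lies at chr3:27153829-27154128 (minus strand), Prc1 at chr7:80294201-80294500 (plus), Cdca8 at chr4:124936868-124937167 (minus) and Plk1 at chr7:122159185-122159484 (plus). Cks2 lies at chr13:51644982-51645281 (plus) and Racgap1 at chr15:99651607-99651906 (minus).
Ect2: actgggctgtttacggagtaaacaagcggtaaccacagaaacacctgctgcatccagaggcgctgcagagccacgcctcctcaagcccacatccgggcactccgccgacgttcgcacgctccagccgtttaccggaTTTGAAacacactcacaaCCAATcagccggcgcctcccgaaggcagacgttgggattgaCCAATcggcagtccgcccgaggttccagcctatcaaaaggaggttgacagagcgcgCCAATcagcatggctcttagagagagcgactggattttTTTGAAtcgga
Prc1: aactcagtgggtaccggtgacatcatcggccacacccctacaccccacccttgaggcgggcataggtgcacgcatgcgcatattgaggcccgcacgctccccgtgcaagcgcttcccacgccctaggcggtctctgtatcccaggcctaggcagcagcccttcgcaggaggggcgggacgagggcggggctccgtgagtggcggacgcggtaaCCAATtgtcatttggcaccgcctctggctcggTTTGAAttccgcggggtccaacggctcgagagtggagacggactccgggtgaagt
Cdca8: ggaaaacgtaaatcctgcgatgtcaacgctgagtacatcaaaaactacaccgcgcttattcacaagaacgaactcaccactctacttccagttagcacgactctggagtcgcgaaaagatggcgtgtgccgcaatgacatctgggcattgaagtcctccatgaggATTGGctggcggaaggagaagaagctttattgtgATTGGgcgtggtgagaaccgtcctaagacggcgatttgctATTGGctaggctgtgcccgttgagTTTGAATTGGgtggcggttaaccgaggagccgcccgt
Plk1: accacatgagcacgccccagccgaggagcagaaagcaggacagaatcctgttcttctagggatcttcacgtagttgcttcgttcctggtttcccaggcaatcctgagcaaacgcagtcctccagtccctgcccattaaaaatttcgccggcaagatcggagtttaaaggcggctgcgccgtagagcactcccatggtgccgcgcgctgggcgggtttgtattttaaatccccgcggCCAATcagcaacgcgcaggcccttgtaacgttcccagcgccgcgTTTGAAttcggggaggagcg
Cks2: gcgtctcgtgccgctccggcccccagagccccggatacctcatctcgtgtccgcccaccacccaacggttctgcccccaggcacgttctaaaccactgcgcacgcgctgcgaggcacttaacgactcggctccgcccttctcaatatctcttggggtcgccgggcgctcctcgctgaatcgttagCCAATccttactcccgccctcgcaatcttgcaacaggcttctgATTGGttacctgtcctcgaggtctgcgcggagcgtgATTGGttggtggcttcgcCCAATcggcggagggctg
Racgap1: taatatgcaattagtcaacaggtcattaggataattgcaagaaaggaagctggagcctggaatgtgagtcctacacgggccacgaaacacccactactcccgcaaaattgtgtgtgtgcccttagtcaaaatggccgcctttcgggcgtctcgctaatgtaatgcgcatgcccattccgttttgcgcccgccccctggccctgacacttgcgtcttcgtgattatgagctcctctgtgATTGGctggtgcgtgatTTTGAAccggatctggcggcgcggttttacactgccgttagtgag

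In Cdca8 the CHR and a CCAAT box in reverse overlap just after the start. Ect2, which had the largest difference, held 2 CHR and 3 CCAAT matches, and Racgap1, which had the lowest, held 1 of each. Cks2 held 4 CCAAT matches and no CHR letters. The 25 genes with a CHR match had a median difference of 0.57, and the 6 measured genes without one (Birc5, Cenpe, Cks2, Nek2, Nuf2 and Nusap1) had a median of 0.63. A FoxO binding element, GTAAACA on either strand, was found in 2 windows (5.88%), those of Ect2 and Nuf2, compared with 3.65% of all windows. A match is a description of these letters and not evidence of binding.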

How the data were processed

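RNA of sorted cortical cells was measured on 8 two-colour arrays of 45220 spots. The deposited scanner files give mean spot intensity and local background intensity per channel. A deposited value table gives log2 ratios of siRNA over scrambled. How the authors normalized it is not given in the sources used here, and it served as an alternative. Labels call the 4 pools per siRNA independent.

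Intensities were corrected with normexp (offset 50) and normalized by loess within arrays, with 4046 control spots at weight 0. Of 41174 gene probes, 34186 had 1 symbol, 0 several and 6988 none in GEO's platform annotation. The brightest probe stood for each symbol, leaving 25310 tests. A probe counted as above empty when its signal passed the 97.5th percentile of 959 spots of the most repeated control reporters, taken as empty. Array number and signal over background limit the precision.

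The fit used limma 3.58.1 under R 4.3.3 (lmFit, then eBayes), with 1 coefficient per siRNA and a dye term, leaving 5 residual degrees of freedom. Tests were two-sided, with Benjamini-Hochberg adjustment over all 25310 and a threshold of 0.05. Procedures were tested on simulated data. The members, gene lists and tests were chosen with earlier results of these data known. Values per array are given for the 24 members that were called in any comparison or had the highest or lowest difference in their role group, and for up to 3 genes of each other list. Of 266 list entries, 253 matched by symbol, 6 by synonym and 7 not at all. Alternatives covered background, normalization, probes, dye, variance model, replicate block and arrays left out.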

Additional observations from a re-analysis of the deposited data

Results flagged for a closer look

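Within a group of 4 arrays, 3 member values stood far from the other arrays of their group, out of 50 groups examined, where chance gives about 1 in 20. All 3 were among the siFoxO6-2 arrays. Cenpf had a log2 ratio of -1.78 on siFoxO6-2 replicate 3, while the other siFoxO6-2 arrays lay between -0.33 and -0.16. Mki67 had a log2 ratio of -1.72 on the same array, while the others lay between -0.14 and -0.0079. Nek2 had a log2 ratio of 0.20 on siFoxO6-2 replicate 4, while the others lay between 0.021 and 0.035.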

How the results depend on the processing

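The median difference between siFoxO6-3 and siFoxO6-2 over the 38 members kept its direction under every alternative run, at 0.47 to 0.71 when 1 array was left out. With median centring it kept its size, but the array medians of the siRNAs overlapped. The median difference moved to 0.31 on the arrays with the siRNA pool in Cy5, which include siFoxO6-3 replicate 4, and the cause was not tested. The number of members called in this difference was 0 in all settings except array weights, which called 2, and was 0 when any single array was left out. Comparisons with scrambled were less stable. With median centring, 0 members were called in each of them, and the median log2 ratio of the members was 0.45 for both siRNAs, 0.75 for siFoxO6-3 and 0.17 for siFoxO6-2. Called members that turned positive with centring were, for both siRNAs, Cdca3 (0.44), Plk1 (0.29), Incenp (0.12), Tpx2 (0.22) and Prc1 (0.27). For siFoxO6-2 they were Cdc25b (0.037), Cdca3 (0.034), Plk1 (0.0071) and Cdca8 (0.18). The median of all genes with centring was 0.11 for both siRNAs and 0.093 for siFoxO6-2. In siFoxO6-2 cells Cdc25b, Cdca3 and Plk1 stayed below that median. For both siRNAs, 3 members were called with the replicate block, 4 with a trended robust variance, 18 on the 5 arrays most alike, and 1 to 9 with 1 array left out. For siFoxO6-3, 0 were called with the replicate block, 0 with a trended robust variance, 1 without background correction, 14 on the 5 arrays most alike, 0 on its own arrays alone, and 0 to 6 with 1 array left out. For siFoxO6-2, 2 were called on its own arrays alone, where fewer samples entered the fit, and 0 to 12 with 1 array left out. Same-numbered arrays of the siRNAs had correlated deviations of 0.53, 0.22, -0.098 and -0.27 for numbers 1 to 4, so the numbers were not taken as pairs, and the replicate block called 7 members for siFoxO6-2. For the 24 members with values per array, none was called in the difference between the siRNAs, so no call could be lost. Of 526 alternative values of this difference, 2 passed the test and 21 had the opposite sign, all of them for Cdc25c, Bub1 or Ndc80, whose differences were slightly below 0. The probes of Cdc25c, Anln and Racgap1 were not above the empty spots on all arrays, so their log2 ratios rest on signal near background.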

Other observations

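Array medians of 3 further marker lists also overlapped between the siRNAs. The 6 oligodendrocyte markers had a median difference of 0.067, siFoxO6-3 minus siFoxO6-2, with array medians of 0.082 to 0.25 for siFoxO6-3 and -0.022 to 0.29 for siFoxO6-2. The 9 endothelial and pericyte markers had a median difference of -0.048, siFoxO6-3 minus siFoxO6-2, with array medians of -0.014 to 0.16 for siFoxO6-3 and -0.011 to 0.51 for siFoxO6-2. The 5 red cell markers had a median difference of -0.089, siFoxO6-3 minus siFoxO6-2, with array medians of -0.40 to 0.51 for siFoxO6-3 and -0.46 to 0.30 for siFoxO6-2.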
